A study of Rattus norvegicus with 4 samples.

Results

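The rat genes Retsat, Angptl4, Pdk4, Cpt1a, Cpt2, Hadha, Acadm and Plin2, 8 genes of fatty acid use and its control, were examined in the spinal cord. They were found as the probes whose accession in the scanner files maps to these genes in the reference table, which gave 9 probes of 30367 on the array. All 8 genes were kept among the 22825 genes tested, and each had both channels well above background on all 4 arrays. The genes were chosen by earlier values of the same arrays, namely the differences of the Cy5/Cy3 ratio between the treatment groups, in which Retsat and Angptl4 stood out. That difference is therefore given for the 8 genes as a description, with no test.

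Peroxisome proliferator-activated receptors (PPARs) are nuclear receptors that bind fatty acids and switch on genes of fatty acid use, together with the partner receptor RXR. In fasting, the liver form PPARα raises the carnitine shuttle, β-oxidation in mitochondria and the making of ketone bodies, and its targets climb together. In the central nervous system β-oxidation is attributed mainly to astrocytes, and neurons burn ketone bodies that arrive from outside. None of the 8 genes forms ketone bodies itself, and all of them are targets of PPARs in liver, muscle or fat of rodents, so the ketone-forming enzymes are described as a list of their own below.

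The arrays measured total RNA of the spinal dorsal horn, where sensory fibres enter the cord, of male rats aged 6 weeks on day 10. Oxaliplatin-treated rats (2 arrays) received a platinum drug against cancer that can cause painful neuropathy, and vehicle-treated rats (2 arrays) received its solvent. Strain, dose, food intake and the number of rats per array are not given in the sources used here. Every array was a 2-colour Agilent array on which, per the labels, Cy5 carried RNA of the oxaliplatin or vehicle rats and Cy3 carried RNA of untreated rats, with no dye swap. The arrays are labelled biological replicates.

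The labels of the channels could not be settled from the arrays. Of 7 markers of dorsal horn neurons kept, 4 passed the test of the mean log2 Cy5/Cy3 ratio against 0 (limma) with Cy3 brighter (Slc6a5, Lbx1, Slc17a6 and Slc32a1), 2 with Cy5 brighter (Tac1 and Lmx1b), and Pax2 did not pass. Their median ratio was -0.34 and -0.80 on the oxaliplatin arrays and -0.25 and -0.21 on the vehicle arrays. The 8 markers of sensory ganglion neurons and Schwann cells, cells outside the cord, had a median ratio of 2.90 and 2.94 on the oxaliplatin arrays and 2.77 and 3.03 on the vehicle arrays, and all 8 passed that test with Cy5 brighter. Over all genes, 26.3% passed that test with Cy3 brighter and 29.3% with Cy5 brighter. Both channels are therefore given for the 8 genes. If Cy3 held the RNA of the treated rats, each difference of the ratio between the groups would have the opposite direction. Each group lay on a slide of its own and was scanned apart from the other, so slide, scan and treatment cannot be told apart. The share of probes well above background was 82.6% to 85.4% in Cy5 and 76.8% to 88.1% in Cy3, with the lowest Cy3 share on oxaliplatin replicate 2. In such whole-tissue RNA, fewer cells of a type and less RNA per cell cannot be told apart, and the number of arrays limits the precision.

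Retsat and Angptl4 are the genes on which the results turn, so the stretches of genome around their start sites are shown. They run from 250 bases before to 50 bases after the start, from RefSeq, build GRCr8. The Retsat window is chr4:106211209-106211508 on the plus strand and the Angptl4 window is chr7:15258632-15258931 on the minus strand, each read 5′ to 3′ along its gene. Capitals mark AGGTCA, the motif that single nuclear receptors bind, in Retsat. In Angptl4 they mark ACGTG, a form of the core of the hypoxia element, here on the opposite strand.
Retsat: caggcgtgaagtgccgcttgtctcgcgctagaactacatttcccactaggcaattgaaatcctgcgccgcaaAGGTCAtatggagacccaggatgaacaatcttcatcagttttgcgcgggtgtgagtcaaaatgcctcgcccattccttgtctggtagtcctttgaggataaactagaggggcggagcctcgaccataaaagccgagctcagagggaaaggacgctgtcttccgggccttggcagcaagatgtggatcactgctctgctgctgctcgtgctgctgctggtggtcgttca
Angptl4: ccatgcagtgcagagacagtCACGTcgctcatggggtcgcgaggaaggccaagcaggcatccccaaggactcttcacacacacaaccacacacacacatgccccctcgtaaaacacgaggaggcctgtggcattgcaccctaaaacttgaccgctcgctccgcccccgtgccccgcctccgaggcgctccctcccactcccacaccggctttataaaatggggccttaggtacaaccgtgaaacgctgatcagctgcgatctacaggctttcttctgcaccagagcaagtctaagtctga

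Motifs were searched on both strands in the windows of all 8 genes, of which Plin2 had 2. The complete PPAR and RXR element, 2 copies of AGGTCA in one direction with 1 base between them, was in 0 of these windows and in 0.0538% of all 33469 promoter windows of the table. A single AGGTCA, which is part of that element, was in the Retsat window alone among the 8 genes, against 16.2% of all windows, and begins at position -178 from the start. The form ACGTG of the hypoxia core was in the windows of Angptl4 and Plin2, against 19.3% of all windows. A form with another first base, GCGTG, was not searched and is also in the Retsat window shown above. The FOXO core TGTTTAC was in 0 windows of the 8 genes, against 3.78% of all windows. A match describes letters only. Motifs were matched exactly, so PPAR elements with other letters, or outside these windows, were not searched. An exact match of the complete element is rare in all windows, so its absence here says little.

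The 8 genes did not share a direction between the groups. The Cy5/Cy3 ratio was higher on the oxaliplatin arrays for Retsat, Cpt2, Cpt1a and Acadm and lower for Angptl4, Hadha, Pdk4 and Plin2. The groups were apart with oxaliplatin higher for 4 of the 8 (27% of all genes) and with oxaliplatin lower for 1 of the 8 (22.2% of all genes), and for Hadha, Pdk4 and Plin2 they overlapped. The median difference of the 8 was 0.063 (log2), against 0.0056 over all genes. It ran from 0.030 (without vehicle replicate 2) to 0.126 (without vehicle replicate 1) with an array left out, and was 0.175 with median centring and 0.171 with the probes of a gene averaged. No gene of the array passed the test of the ratio between the groups (limma, Benjamini-Hochberg, 0 genes, 0% of those tested), while 3344 genes, 14.7%, had an unadjusted p under 0.05. The number passing the adjusted test did not stay at 0 with an array left out. Such a fit leaves 1 array in a group, so its counts are listed only at the end, under the dependence on processing, and are not read as results. Over all genes the ratios of the 2 oxaliplatin arrays correlated at Pearson r = 0.854. Oxaliplatin replicate 1 correlated at 0.918 and 0.883 with the vehicle arrays, and oxaliplatin replicate 2 at 0.822 and 0.754.

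**Figure D1:**
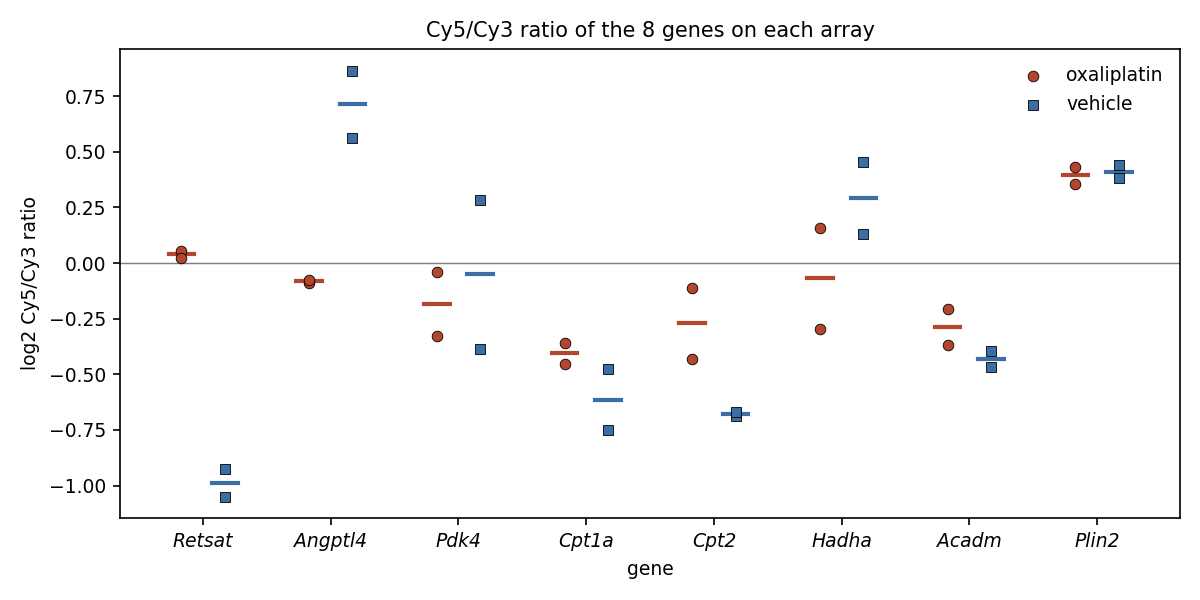
Log2 Cy5/Cy3 ratio of the 8 genes (x axis) on each array, with circles for the 2 oxaliplatin arrays, squares for the 2 vehicle arrays and bars for group means. Retsat lies higher and Angptl4 lower on the oxaliplatin arrays, while the Plin2 values of both groups lie between 0.36 and 0.44 and their order depends on the scaling. Hadha is drawn from the brighter of its 2 probes.

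Retsat encodes retinol saturase, an enzyme of the endoplasmic reticulum that reduces retinol and is a PPARγ target in mouse fat cells. Its log2 ratio was 0.055 and 0.023 on the oxaliplatin arrays, against -0.93 and -1.05 on the vehicle arrays. The groups were apart, and the replicates of a group lay within 0.12 of each other. The difference was 1.03 ± 0.12 (limma moderated SE, as for every SE here, n = 2 arrays per group), a 2.04-fold higher ratio. Of all genes, 0.228% had a difference at least as large in either direction.

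The Retsat difference lay in Cy3. The normalised log2 Cy3 signal was 10.72 and 10.53 on the oxaliplatin arrays, against 11.62 and 11.85 on the vehicle arrays. In Cy5 it was 10.78 and 10.55 on the oxaliplatin arrays, against 10.69 and 10.80 on the vehicle arrays, and the groups overlapped. The difference of the group means was thus -1.11 in Cy3 and -0.085 in Cy5. As measured by the scanner before any correction, the Cy3 spots of Retsat had a median brightness of 1245 and 617 on the oxaliplatin arrays, against 2571 and 2963 on the vehicle arrays. The median Cy3 brightness of all probe spots was 494 and 283.5 on the oxaliplatin arrays, against 564 and 530 on the vehicle arrays. The uncorrected gap thus includes the dimmer Cy3 channel of oxaliplatin replicate 2.

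Angptl4 is a secreted protein that shuts down lipoprotein lipase and so steers fat from the blood away from fat tissue in fasting, and glucocorticoids and low oxygen also induce it. Its log2 ratio was -0.088 and -0.075 on the oxaliplatin arrays, against 0.86 and 0.56 on the vehicle arrays. The 2 groups did not overlap and differed in the direction opposite to Retsat, by -0.79 ± 0.14 (SE, n = 2 arrays per group). A difference of at least this size was seen for 0.74% of all genes.

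For Angptl4, too, the difference lay in Cy3, where the log2 signal was 11.99 and 11.91 on the oxaliplatin arrays, against 10.97 and 11.30 on the vehicle arrays. Its Cy5 signal was 11.91 and 11.83 on the oxaliplatin arrays, against 11.83 and 11.86 on the vehicle arrays. The Cy5 groups overlapped, and the difference of the means was 0.82 in Cy3, against 0.022 in Cy5. Read by channel, Retsat was lower and Angptl4 higher in Cy3 on the oxaliplatin arrays, and neither gene had groups apart in Cy5. Per the labels Cy3 is the channel of the untreated rats on every array.

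**Figure D2:**
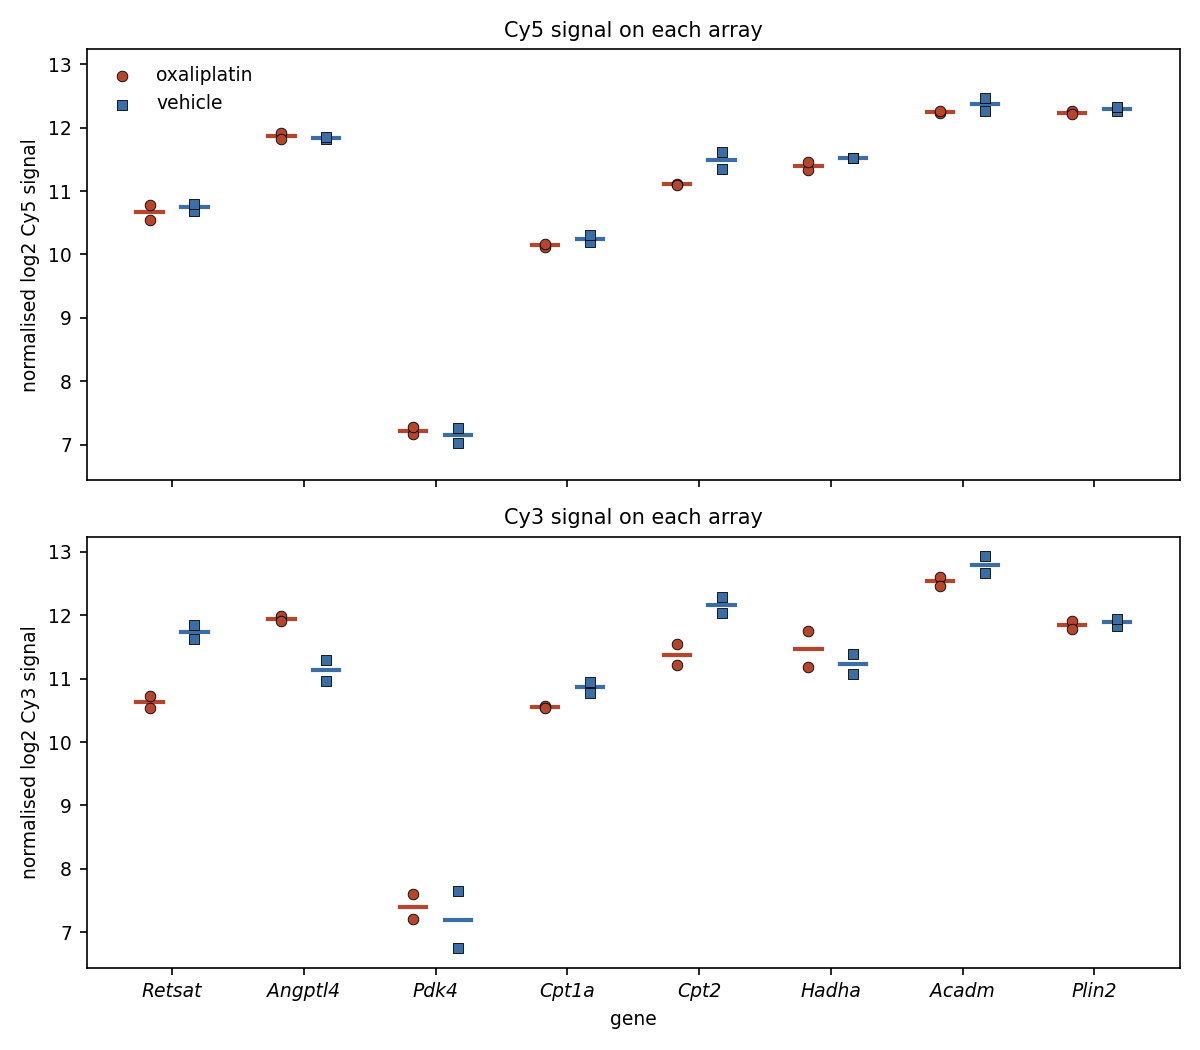
Normalised log2 Cy5 signal (top) and log2 Cy3 signal (bottom) of the 8 genes on each array, with circles for the 2 oxaliplatin arrays, squares for the 2 vehicle arrays and bars for group means. The groups of Retsat and Angptl4 lie apart in Cy3 and overlap in Cy5. Heights are not comparable between genes, since each gene has its own probe.

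The carnitine shuttle moves long-chain fatty acids into mitochondria, with Cpt1a at the outer membrane as its rate-limiting enzyme and Cpt2 at the inner membrane. Cpt2 had log2 ratios of -0.43 and -0.11 on the oxaliplatin arrays, against -0.69 and -0.67 on the vehicle arrays, a difference of 0.41 ± 0.14 (SE, n = 2 arrays per group). The groups were apart, although the oxaliplatin arrays differed by 0.32 from each other. Cpt1a had ratios of -0.45 and -0.36 on the oxaliplatin arrays, against -0.75 and -0.48 on the vehicle arrays, a difference of 0.21 ± 0.14. Here the nearest values of the groups were 0.024 apart, less than the gap between the vehicle arrays of 0.28.

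Both shuttle genes were lower in both channels on the oxaliplatin arrays, and more so in Cy3. Cpt2 differed by -0.79 in Cy3 and -0.38 in Cy5, and Cpt1a by -0.32 in Cy3 and -0.11 in Cy5. Each gene had 10 spots per array, of which 1 Cpt2 spot was an outlier on a vehicle array, and the spots of an array had an SD of 0.031 to 0.087 (log2 ratio), so the spread between arrays exceeded that between spots for Cpt2 on the oxaliplatin arrays and for Cpt1a on the vehicle arrays.

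Acadm, the medium-chain acyl-CoA dehydrogenase of β-oxidation, had log2 ratios of -0.37 and -0.21 on the oxaliplatin arrays, against -0.39 and -0.47 on the vehicle arrays. Between the groups the nearest values were 0.024 apart, and the means differed by 0.14 ± 0.12 (SE, n = 2 arrays per group). The difference was -0.26 in Cy3 and -0.12 in Cy5, with the oxaliplatin arrays lower in both.

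Hadha encodes the α subunit of the trifunctional protein, which carries out the later steps of long-chain β-oxidation, and its 2 probes disagreed. The brighter probe, with 1 spot per array, had log2 ratios of 0.16 and -0.30 on the oxaliplatin arrays, against 0.13 and 0.45 on the vehicle arrays, a difference of -0.36 ± 0.19 (SE, n = 2 arrays per group) with overlapping groups. The other probe, with 2 spots per array, had ratios of -0.18 and 0.014 on the oxaliplatin arrays, against -0.71 and -0.98 on the vehicle arrays, a difference of 0.76. In Cy3 the second probe differed by -0.72 and the first by 0.24, and in Cy5 by 0.041 and -0.12, so no direction can be given for this gene.

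Hadhb, the β subunit of the same protein, had ratios of -0.26 and 0.35 on the oxaliplatin arrays, against -0.64 and -0.93 on the vehicle arrays. Its difference of 0.83 ± 0.21 (SE, n = 2 arrays per group) had the direction of the second Hadha probe and the opposite direction to the first.

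Pdk4 blocks pyruvate dehydrogenase and so saves glucose in fasting, and both PPARs and glucocorticoids induce it. Its log2 ratio was -0.041 and -0.33 on the oxaliplatin arrays, against 0.29 and -0.39 on the vehicle arrays. The groups overlapped, and the gap between the vehicle arrays, 0.67, exceeded the difference of the means, -0.13 ± 0.23 (SE, n = 2 arrays per group). That difference was 0.20 without vehicle replicate 1, -0.47 without vehicle replicate 2, 0.0095 without oxaliplatin replicate 2 and -0.28 without oxaliplatin replicate 1. By channel it was 0.20 in Cy3 and 0.068 in Cy5, with overlapping groups in both. Pdk4 was also dim, with an uncorrected Cy5 brightness of 146 and 167 on the oxaliplatin arrays and 150.5 and 167.5 on the vehicle arrays, over a local background of 53.5 to 55.3.

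Plin2 coats lipid droplets and climbs when cells store fatty acids. Its log2 ratio was 0.36 and 0.43 on the oxaliplatin arrays, against 0.44 and 0.38 on the vehicle arrays. The groups overlapped with a difference of -0.018 ± 0.11 (SE, n = 2 arrays per group), which was 0.11 with median centring in place of loess. In Cy3 the difference was -0.041, and in Cy5 it was -0.059, so Plin2 varied little over the 4 arrays in both channels.

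**Figure D3:**
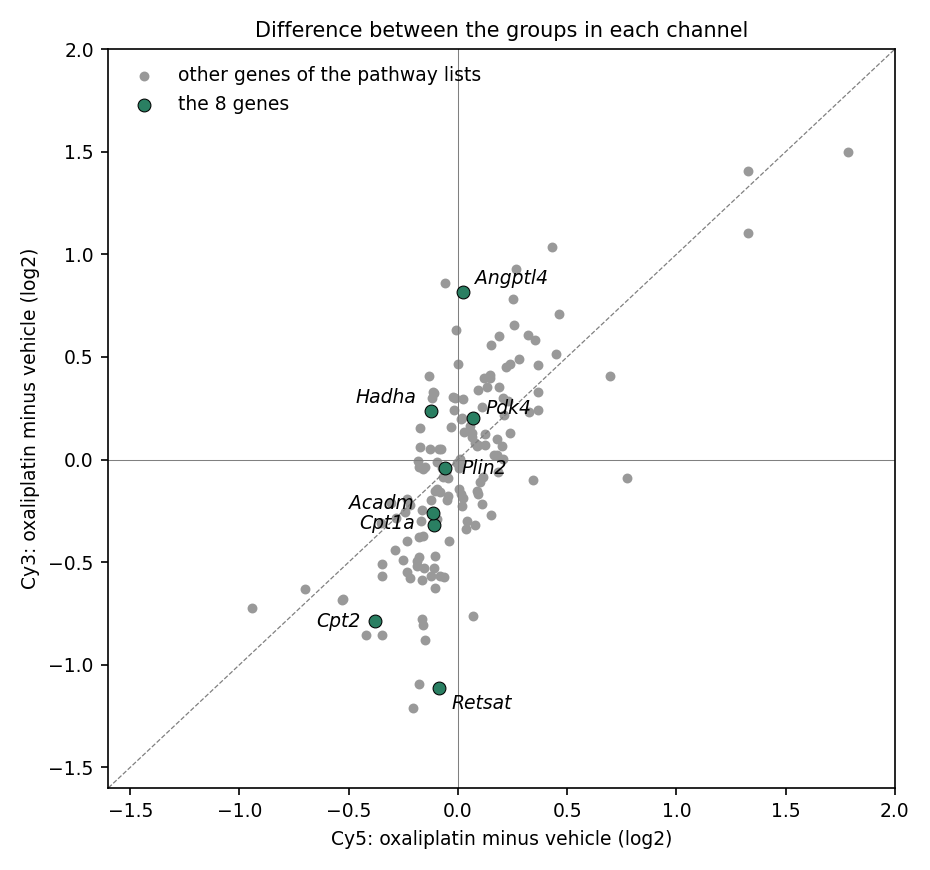
Difference of the oxaliplatin minus the vehicle arrays in log2 Cy5 signal (x axis) and log2 Cy3 signal (y axis) for the 8 genes (green) and the other genes of the pathway lists (grey), with a dashed line where both are equal. Retsat lies low, at -1.11, and Angptl4 high, at 0.82, on the Cy3 axis, with Cy5 differences of -0.085 for Retsat and 0.022 for Angptl4.

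By channel, the 8 genes had a median difference of -0.15 in Cy3 and -0.097 in Cy5, against -0.018 and -0.0025 over all genes. In Cy3 the oxaliplatin arrays lay below both vehicle arrays for 4 of the 8 (Retsat, Cpt1a, Cpt2 and Acadm; 31.2% of all genes) and above for Angptl4 (26.9% of all genes). In Cy5 they lay below for 5 of the 8 (30.2% of all genes) and above for 0 (29.6% of all genes), the 5 being Cpt1a, Cpt2, Hadha, Acadm and Plin2. The SD of the difference over all genes was 0.48 in Cy3 and 0.36 in Cy5. Of the 8 genes, Retsat, Angptl4 and Cpt2 exceeded it in Cy3, and Cpt2 alone in Cy5. Retsat and Angptl4 were chosen by this contrast, so their size here is no separate evidence. Over all genes, too, the difference of the ratio was correlated more strongly with that in Cy3 (Pearson r = -0.662) than with that in Cy5 (r = -0.18).

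The mean ratio over all 4 arrays, a value that does not depend on the difference between the groups, was tested against 0 to see which channel was brighter. Cy5 was brighter for Plin2, with a mean log2 ratio of 0.40 ± 0.057 (SE, n = 4 arrays, limma adjusted p = 0.00121), and for Angptl4, with 0.32 ± 0.069 (limma adjusted p = 0.00794). Cy3 was brighter for Cpt1a at -0.51 ± 0.068 (limma adjusted p = 9.50e-04), for Cpt2 at -0.47 ± 0.071 (limma adjusted p = 0.00150), for Retsat at -0.47 ± 0.058 (limma adjusted p = 6.57e-04) and for Acadm at -0.36 ± 0.061 (limma adjusted p = 0.00259). Over all genes 29.3% passed with Cy5 brighter and 26.3% with Cy3 brighter, so passing was common.

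The sign held on all 4 arrays for Plin2, Cpt1a, Cpt2 and Acadm, but not for Angptl4 and Retsat, whose ratios on the oxaliplatin arrays had the opposite sign to the mean. Without vehicle replicate 1, Angptl4 did not pass (0.24, limma adjusted p = 0.0647) and Pdk4 did (-0.284, limma adjusted p = 0.0469). Hadha passed with Cy5 brighter without oxaliplatin replicate 2 (0.226, limma adjusted p = 0.0496) and with median centring (0.283, limma adjusted p = 0.0296), and with Cy3 brighter where its probes were averaged (-0.176, limma adjusted p = 0.0358). Acadm did not pass with median centring (-0.077, limma adjusted p = 0.438). With all arrays Pdk4 (-0.12, limma adjusted p = 0.41) and Hadha (0.11, limma adjusted p = 0.34) did not pass. With no dye swap, dye and RNA source cannot be told apart in these means.

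Among genes whose 8 channel values (4 arrays, 2 channels) ran most like those of Retsat, the proteasome subunit Psmb7 came first (Pearson r = 0.988), followed by Fis1, Madd, Rab11b and Qprt (r = 0.983 to 0.985). For Angptl4 they were Ube2t (r = 0.970), Spc25, Klhdc8a, Abcg2 and Lsr (r = 0.951 to 0.966). None of these is on the pathway lists. The values share arrays, and with 13938 genes compared over 8 values a high correlation is easily reached.

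Ketone body enzymes and transporters mostly had higher ratios on the oxaliplatin arrays. Of 8 such genes, 6 were higher and 2 lower, with a median difference of 0.23 (0.14 without vehicle replicate 2), against 0.0056 over all genes, and 0 passed the test. Acat1, which acts in both the making and the use of ketone bodies, differed by 0.52 ± 0.16 in the ratio and Bdh2, a cytosolic dehydrogenase, by 0.42 ± 0.15 (SE, n = 2 arrays per group). Bdh1, which interconverts the main ketone bodies, differed by -0.25 ± 0.12, and Oxct1, the enzyme that starts their use, by 0.047 ± 0.14.

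Most other genes of mitochondrial β-oxidation also had higher ratios on the oxaliplatin arrays. Of 18 genes, 15 had higher and 3 lower ratios, with a median of 0.20 (0.12 without oxaliplatin replicate 2) and 0 passing the test. The groups were apart with oxaliplatin higher for 12 of the 18 (27% of all genes) and lower for 2 (22.2% of all genes). In Cy3, 13 of the 18 were lower on the oxaliplatin arrays with a median of -0.26, while the Cy5 median was 0.020. Besides Hadhb, the electron carrier subunit Etfa differed by 0.40 ± 0.12 and the thiolase Acaa2 by 0.33 ± 0.14, while Etfb, the partner of Etfa, differed by -0.29 ± 0.13 (SE, n = 2 arrays per group). In the mean ratio, 8 of the 18 passed with Cy3 brighter and 0 with Cy5 brighter (26.3% and 29.3% of all genes).

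Markers of glia moved in the same direction as these lists. Astrocyte markers, 7 of 8 of which were higher, differed by a median of 0.42 in the ratio and -0.29 in Cy3. Oligodendrocyte markers, 6 of 7 of which were higher, differed by a median of 0.60 in the ratio and -0.72 in Cy3. The median ratio of the astrocyte markers was -0.86 and -0.52 on the oxaliplatin arrays, against -1.15 and -1.34 on the vehicle arrays. For oligodendrocyte markers it was -1.35 and -1.03 on the oxaliplatin arrays, against -1.73 and -1.50 on the vehicle arrays. The part of glial content in the values of the 8 genes was not tested.

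Markers of fat cells were partly undetected. Of 8 listed, 5 were kept, with a median difference of 0.19, and Plin1 had no named probe on the array. Cfd and Lipe were well above background in both channels on all 4 arrays, and Lep in Cy5 on 4 and in Cy3 on 3. Adipoq, the hormone that defines fat cells, and Retn were so in Cy5 on 2 arrays and in Cy3 on 3. Fabp4 was not well above background in Cy3 on any array and Cidec was not in Cy5 on any array. Skeletal muscle markers had a median difference of -0.051 over 5 genes and endothelial markers -0.030 over 8 genes.

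Of the PPAR receptors, Ppard and Ppara had groups apart with oxaliplatin higher, as had 27% of all genes, and Pparg did not. Ppara, the receptor of the fasting response in liver, differed by 0.20 ± 0.13 in the ratio (SE, n = 2 arrays per group), Pparg, that of fat cells, by -0.045 ± 0.15, and the coactivator Ppargc1a by 0.11 ± 0.12. Ppard, the widely expressed form, had ratios of -0.058 and 0.13 on the oxaliplatin arrays, against -0.39 and -0.51 on the vehicle arrays, a difference of 0.49 ± 0.13 with the groups apart. It too was lower in Cy3, by -0.57, and differed by -0.082 in Cy5. Of the 12 receptor and cofactor genes kept, 9 had higher and 3 lower ratios, with a median of 0.077 and 0 passing. The median was 0.15 with median centring, 0.12 without vehicle replicate 2 and 0.031 without vehicle replicate 1.

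Peroxisomal and ω-oxidation genes, the strongest PPARα targets of rodent liver, were split. Of 15 kept, 7 had higher and 8 lower ratios, with a median of -0.11 and 0 passing the test. The median was 0.0097 with median centring, -0.029 with averaged probes and between -0.055 and -0.024 with any array left out. Cyp4a8, a fatty acid hydroxylase, differed by -0.61 ± 0.21 (SE, n = 2 arrays per group), while Decr2, a peroxisomal reductase, differed by 0.42 ± 0.13 and the thioesterase Acot1 by 0.37 ± 0.13. Ehhadh, an enzyme of the peroxisomal pathway, differed by -0.11 ± 0.12. Cyp4a3 was not well above background on any array in either channel.

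Of 13 fatty acid uptake genes kept, 9 were lower and 4 higher, with a median of -0.11 (0.017 with median centring, -0.012 without oxaliplatin replicate 2) and 0 passing. The transporter Slc27a1 differed by 0.65 ± 0.12 and its relative Slc27a2 by -0.44 ± 0.12, while the scavenger receptor Cd36, a PPAR target, differed by -0.40 ± 0.18 (SE, n = 2 arrays per group). Of the lipoprotein lipase system that Angptl4 acts on, Lpl differed by -0.092 ± 0.13 and its anchor Gpihbp1 by -0.11 ± 0.12, and all 3 genes kept had overlapping groups.

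Lipid droplet genes were split, 5 higher and 3 lower of 8 kept, with a median of 0.19 (0.0079 without oxaliplatin replicate 2, 0.021 with no filter on dim probes) and 0 passing. The lipase Mgll differed by 0.73 ± 0.17 and the triglyceride-forming Dgat2 by 0.42 ± 0.13, while Cidea, a droplet protein, differed by -0.66 ± 0.17 and G0s2, an inhibitor of lipolysis, by -0.54 ± 0.22 (SE, n = 2 arrays per group). Plin5, a relative of Plin2, was well above background on 1 of the 4 arrays in each channel and was not kept.

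Other genes of fasting had a median of 0.14, with 11 higher and 4 lower of 15 kept and 0 passing. It was 0.032 with median centring, 0.061 without vehicle replicate 1 and 0.069 without oxaliplatin replicate 1. The uncoupling proteins Ucp2 and Ucp3 differed by 0.51 ± 0.14 and 0.44 ± 0.16 and Pdk2, a relative of Pdk4, by 0.44 ± 0.12, while the transcription factor Foxo3 differed by -0.42 ± 0.15 (SE, n = 2 arrays per group). Ucp3 was dim, being well above background on 3 of the 4 arrays in each channel. Fgf21, a hormone that PPARα induces in the fasted liver, differed by 0.042 ± 0.14. The gluconeogenic enzyme Pck1 was not well above background on any array in either channel.

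Genes of fatty acid synthesis, which fall in the fasted liver, had a median of 0.031, with 7 higher and 5 lower of 12 and 0 passing. Its sign was not stable: it was 0.20 without vehicle replicate 1, -0.062 without vehicle replicate 2, -0.048 without oxaliplatin replicate 2, 0.070 without oxaliplatin replicate 1 and -0.034 with median centring. Acaca, the first committed enzyme, differed by -0.64 ± 0.18, while Thrsp, a regulator of that pathway, differed by 1.01 ± 0.32 and the desaturase Fads1 by 0.61 ± 0.22 (SE, n = 2 arrays per group). The Thrsp ratios lay far apart on the oxaliplatin arrays, at -0.13 and 0.89, against -0.40 and -0.85 on the vehicle arrays. The 16 retinoid genes kept had a median of 0.013 (-0.0081 without oxaliplatin replicate 1, 0.071 without oxaliplatin replicate 2), with 9 higher, 7 lower and 0 passing. Lrat, which esterifies the retinol that Retsat reduces, differed by -0.53 ± 0.17.

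The 12 hypoxia genes had a median of -0.036 (-0.18 without vehicle replicate 2, -0.067 without oxaliplatin replicate 1 and -0.056 without oxaliplatin replicate 2), with 5 higher, 7 lower and 0 passing. Vegfa, the vascular growth factor, differed by -0.47 ± 0.12 and Adm, a vasodilator peptide, by -0.43 ± 0.13, the direction of Angptl4. Ndrg1 differed the other way, by 0.51 ± 0.18 (SE, n = 2 arrays per group). Vegfa is given from the brightest of its 4 probes. In Cy3, Vegfa and Adm were higher on the oxaliplatin arrays, by 0.46 and 0.33, and in Cy5 they differed by -0.00098 and -0.11. The 10 glucocorticoid genes had a median of -0.16, with 2 higher, 8 lower and 0 passing. That median was 0.148 without vehicle replicate 1, -0.524 without vehicle replicate 2, -0.0305 without oxaliplatin replicate 2 and -0.299 without oxaliplatin replicate 1. The list included the clock gene Per1 at 0.86 ± 0.17 and the chaperone partner Fkbp5 at -0.41 ± 0.15.

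**Figure D4:**
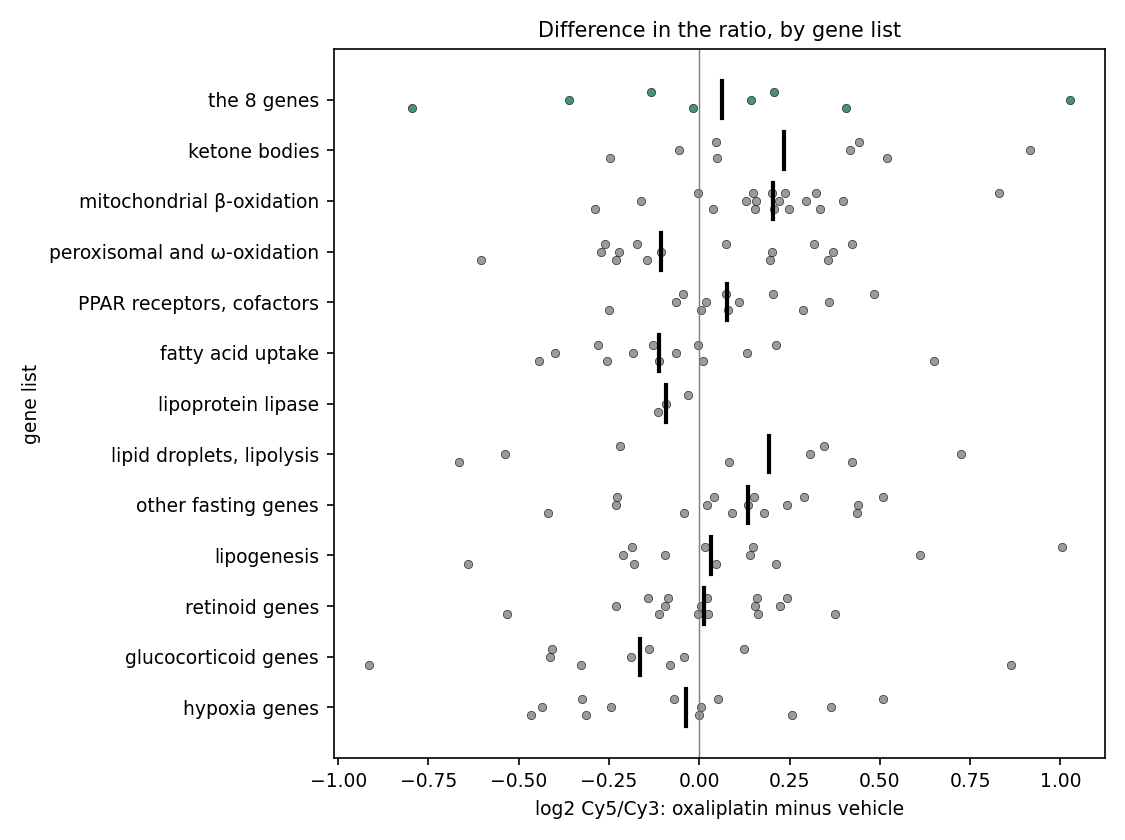
Difference in the log2 Cy5/Cy3 ratio, oxaliplatin minus vehicle arrays (x axis), of each kept gene of the 8 genes (green) and of the 12 pathway lists (grey), with a bar at each median. Medians run from -0.16 (glucocorticoid genes) to 0.23 (ketone bodies), and the 8 genes spread from -0.79 to 1.03.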

How the data were processed

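Groups and replicate numbers come from the sample labels. Per the file headers, Agilent Feature Extraction 10.7.1.1 made the deposited values: a median pixel intensity and local background per spot and channel, an intensity corrected for background and dye, a log10 ratio of Cy5 over Cy3, and quality flags. The submitters' processing notes name version 8.5.1.1. The deposited value table holds log10 ratios within 0.005 of the scanner's, and its column medians lie between -0.00492 and 0.

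No mean intensities were used, since the files hold medians. These were corrected by normexp (offset 50) and loess within arrays in limma 3.58.1 under R 4.3.3, leaving out 4259 control spots and outlier spots, and spots of a probe were averaged. A probe was kept where at least 2 arrays had its Cy5 well above background (26009 of 30367), and the probe with the highest mean signal stood for a gene. Where a gene had further probes, these are described on their own for Hadha alone. Through their accession, 18758 probes were named in RefSeq's GRCr8 table. Channel signals were normalised by Aquantile. Groups were compared by lmFit and eBayes with Benjamini-Hochberg adjustment over 22825 genes (threshold 0.05), which was checked on simulated data. Each SE is the moderated SE of that fit, in which the variance of a gene is drawn toward that of all genes (residual df 2, prior df 4.74). It can therefore be smaller or larger than the plain SE of the arrays. Alternatives changed the background correction, normalisation, scaling, filter, probe choice, channel, replicate block and arrays used.

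Genes named were the 8 members, up to 4 per list with the smallest unadjusted p in each comparison, and a few fixed genes. Bdh1, Oxct1, Ehhadh, Plin5, Pck1, Cyp4a3, the fat cell markers and the dorsal horn markers were named for their roles after values were seen. A few genes that these rules would name are not reported here. The members and lists were chosen with earlier results of these data known. The labels call replicates biological but name no rats, so p-values measure the spread between arrays. Same-numbered arrays did not deviate together (r = -0.222).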

Additional observations from a re-analysis of the deposited data

Results flagged for a closer look

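Of 83 genes named by rule, 7 had both oxaliplatin ratios on the opposite side of 0 from both vehicle ratios (log2 Cy5/Cy3). These 7 were among the genes compared between the groups, of which 0 passed (limma, Benjamini-Hochberg). Many of the 83 were named for a small unadjusted p in this same comparison, or chosen by it, so such a separation was favoured in advance. The share of all genes with groups on opposite sides of 0 was not computed. Groups apart, a looser condition, were seen with oxaliplatin higher in 27% of all genes and lower in 22.2%. The oxaliplatin ratio was above 0 and the vehicle ratio below 0 for Retsat (difference 1.03), Ucp2 (0.508), Ucp3 (0.44), Dgat2 (0.423) and Etfa (0.399). It was the other way round for Angptl4 (-0.794) and Cyp4a8 (-0.605). Ucp3 was well above background on 3 of the 4 arrays in each channel.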

How the results depend on the processing

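Retsat (0.96 to 1.12), Angptl4 (-0.95 to -0.62), Cpt1a, Cpt2 and Acadm kept their direction under the alternatives run, except in Cy5 alone, where the differences were -0.085 for Retsat, 0.022 for Angptl4, -0.11 for Cpt1a, -0.38 for Cpt2 and -0.12 for Acadm. Averaging its probes put Hadha at 0.20, and its other probe, which was chosen after seeing the data, gave 0.76, while its mean ratio over averaged probes was -0.18 and passed the test (limma adjusted p = 0.0358). Plin2 was at 0.11 with median centring, 0.040 with scaled ratios and 0.042 in Cy3 alone with the sign turned. With median centring the peroxisomal list median was 0.0097 and the uptake median 0.017. With Agilent's processed signal Pdk4 was at -0.20 in Cy5 and the Cy5 median of the 8 genes at -0.18.

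The number of genes called between the groups, 0, was 2 to 937 when an array was left out (937 for oxaliplatin replicate 1 left out, 15 for the other oxaliplatin array, and 33 and 2 for the vehicle arrays) and 3 with the replicate block. With crossed pairs as the replicate block, chosen after seeing the data, it was 537. Each fit with an array left out has 1 array in a group, so its count shows dependence on the processing only and is not read as a result. The Cy3 median of the 8 genes ran from -0.24 (vehicle replicate 1 left out) to -0.054 (vehicle replicate 2 left out). The causes were not tested. The Pdk4 difference ran from -0.47 to 0.20, although Pdk4 was well above background in both channels on all 4 arrays.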
